A study of Mus musculus with 12 samples.

Results

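The genes described here are 9 genes that handle thyroid hormone once it has been made. They are the deiodinases *Dio1*, *Dio2* and *Dio3*, the transporter *Slc16a10*, the nuclear receptors *Thra* and *Thrb*, the binding proteins *Crym* and *Ttr*, and *Klf9*, a target of the receptors. They were taken by symbol from the 55536 genes of the deposited tables, where each symbol names 1 gene. RNA of 12 mouse thyroids was sequenced after depletion of ribosomal RNA, with 1 library per mouse, in a study of thyroid dysplasia in C57BL/6NTac (B6NTac) mice that carry a LINE-1 retrotransposon in *Tg*. The 5 affected mice were obtained from Taconic and had the dysplasia. Of the 7 unaffected mice, 6 were C57BL/6NCrl (B6NCrl) mice from Charles River and 1 (replicate 14) was a Taconic animal that the methods call a knockout without naming the gene. The labels state neither the LINE-1 genotype of any mouse nor its age, sex or batch. Apart from replicate 14, colony and phenotype split the mice in the same way and cannot be told apart.

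Total counts per library were between 20170500 and 23319948 in affected mice and between 11434901 (replicate 14) and 22401136 in unaffected mice. Levels are given as CPM, counts scaled to the library total and edgeR's TMM factors, or as FPKM, which divides by transcript length and was used to compare the 9 genes with each other. All 12 markers of follicular thyrocytes passed the filter on low counts, and *Tg*, the most abundant of them, had an FPKM of at least 13700 in every mouse.

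Thyroid hormone is released mostly as thyroxine, a prohormone that deiodinases convert to the active triiodothyronine or to inactive products, and that membrane transporters carry across the cell surface. Inside the cell, triiodothyronine binds nuclear receptors that switch target genes on or off together with corepressors and coactivators. In the thyroid itself, deiodinase activity contributes to the triiodothyronine that the gland secretes, and transporters take part in the release of hormone from follicular cells.

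*Klf9* had the highest level per length of the 9 genes in unaffected mice, with a median FPKM of 52.4. *Dio1* came next at a median FPKM of 41.5, and *Thra* followed at 30.3. *Klf9* exceeded *Dio1* in 4 of the 7 unaffected mice, so these neighbours were not separated beyond their spread, whereas *Dio1* exceeded *Thra* in 6 of 7 and *Thra* exceeded *Thrb* in all 7. Median FPKM was 5.43 for *Thrb*, 3.63 for *Slc16a10* and 0.753 for *Ttr*, and *Dio2* lay between 0.248 and 1.59. *Ttr* exceeded *Dio2* in 5 of the 7 unaffected mice. *Crym* (median FPKM 0.0745) and *Dio3* (median 0) were close to the limit of detection, and both failed the filter on low counts. In affected mice the median FPKM of *Dio2* was 4.58, which placed it above the medians of *Slc16a10* (3.31) and *Thrb* (3.84). That order did not hold in affected replicates 4 and 6, where *Dio2* was at 0.296 and 0.665 FPKM, below both genes.

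Of the 7 genes that passed the filter, 1 (*Dio2*, higher in affected mice) had an adjusted p under 0.05 in edgeR's quasi-likelihood test. Across all 19661 genes tested, 13.7% had such a p, with 7.63% higher and 6.1% lower in affected mice, so the count among the 7 is near the background. None of the 7 was called lower by edgeR, although *Ttr* had an unadjusted p of 0.0301 and was called lower by DESeq2 (log2 fold change -1.93, adjusted p = 0.0401). None of the 7 had groups that did not overlap, beside 7.14% of all genes and 0.253% that chance alone would give.

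**Figure D1:**
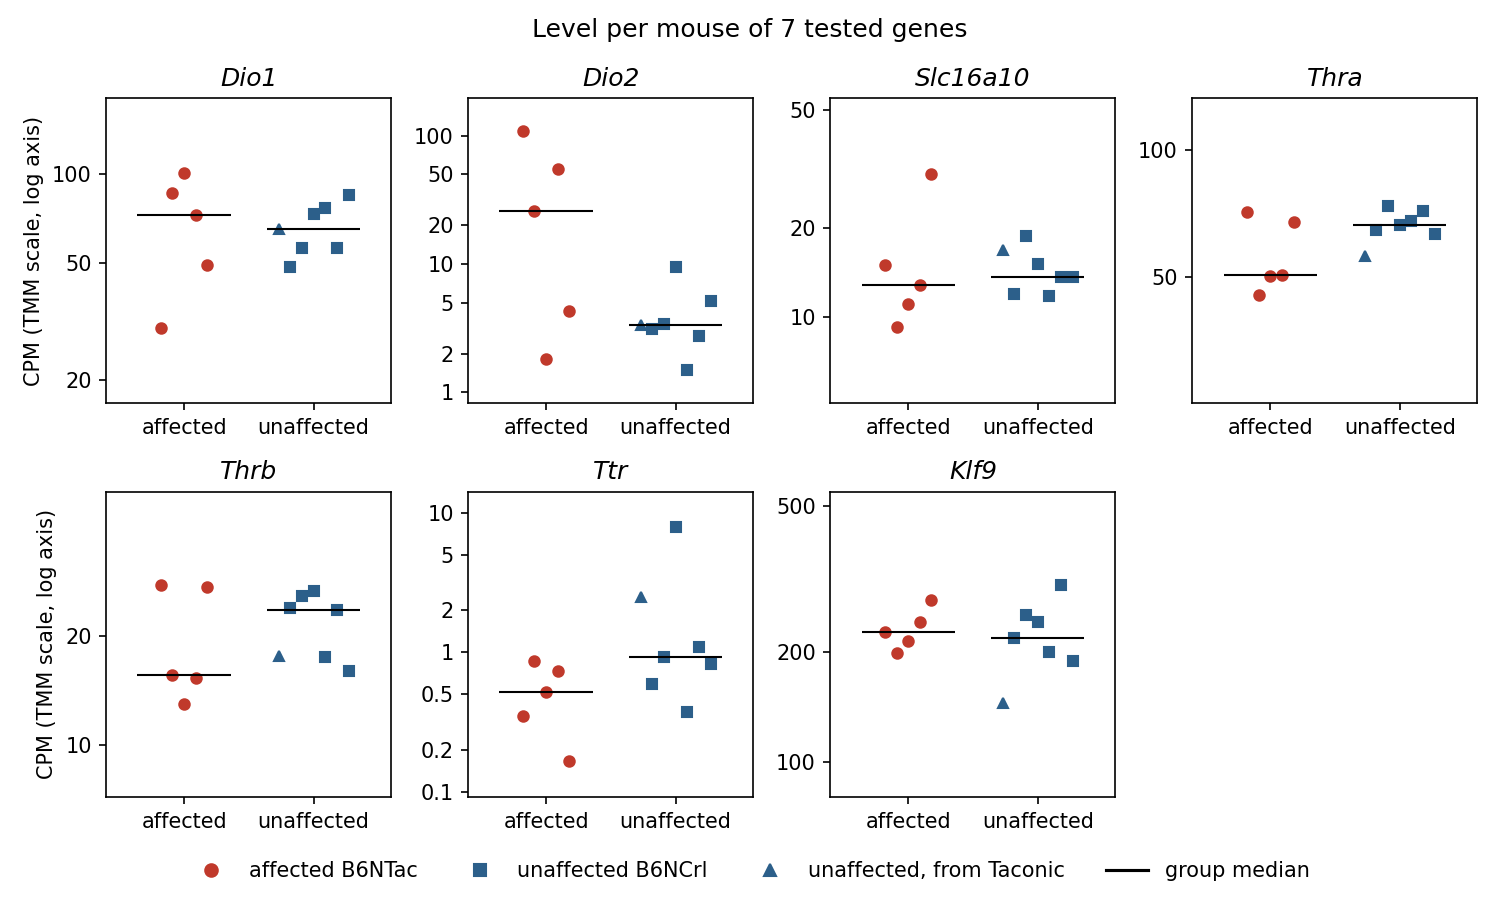
Level per mouse, as CPM on the TMM scale with a log axis, of the 7 tested genes; each point is 1 mouse (5 affected, 7 unaffected) and each line a group median. The groups overlap in all 7 panels, and affected mice are most spread for *Dio2*, from 1.81 to 109 CPM.

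Among the deiodinases, *Dio2* was called higher in affected mice, with overlapping groups, and *Dio1* did not pass the test. *Dio1* (ENSMUSG00000034785, minus strand of chromosome 4 from 107291465 to 107307169 in GRCm38) encodes an enzyme that can both activate and inactivate the hormone. In affected replicates 1, 3, 4, 5 and 6 its level was 30.1, 86.8, 101, 72.8 and 49.3 CPM, and in unaffected mice it lay between 48.6 and 85.3 CPM (median 65.4). Affected replicate 1 was below every unaffected mouse, and replicates 3 and 4 were above every one. Between the groups the log2 fold change was 0.04 ± 0.26 (SE, n = 5 and 7; edgeR adjusted p = 0.936), with a 95% interval from -0.52 to 0.60. Leaving out affected replicate 3 or 4 or unaffected replicate 21 turned it to -0.06, -0.13 and -0.02, and library totals without *Tg* to -0.08.

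The thyrocyte markers varied in the same mice as *Dio1*. Their mean log2 CPM, over 10 markers without *Tg* and *Iyd*, was 4.69, 5.70, 5.86, 5.76 and 4.77 in affected replicates 1, 3, 4, 5 and 6, and 5.37 ± 0.24 (SD, n = 7) in unaffected mice. The group means are near each other although the markers moved both ways. Log2 fold changes were 3.69 for *Slc26a4*, -0.81 for *Pax8*, -0.77 for *Duoxa2* and -0.61 for *Foxe1*, of which the first and second were called. *Slc26a4* had 11 to 77 counts in affected mice and 0 to 6 in unaffected mice, so its fold is uncertain. Relative to the marker mean, log2 *Dio1* was 0.61 ± 0.27 (SD, n = 5) in affected and 0.65 ± 0.18 (SD, n = 7) in unaffected mice, with overlapping groups. That mean includes *Slc26a4* and was not computed without it, so the sign of this small difference is not settled. In bulk tissue, fewer cells of a type and less RNA per cell cannot be told apart. The part of tissue composition in the levels of *Dio1* was not tested.

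*Dio2* (ENSMUSG00000007682, minus strand of chromosome 12 from 90724552 to 90738438) encodes the deiodinase that makes triiodothyronine within cells, and brown adipose tissue is a known site of its expression. In affected replicates 1, 3, 4, 5 and 6 its level was 109, 25.7, 1.81, 55.1 and 4.30 CPM, and in unaffected mice it lay between 1.48 and 9.40 CPM (median 3.34). Replicates 1, 3 and 5 were above every unaffected mouse, while replicates 4 and 6 fell within the unaffected range. The spread among affected mice was 60.2-fold from lowest to highest, against 6.34-fold among unaffected mice. *Dio2* was 9.54-fold higher in affected mice on average (log2 fold change 3.25 ± 0.85, SE, n = 5 and 7; edgeR adjusted p = 0.0282), with a 95% interval of the log2 value from 1.39 to 5.12.

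The call for *Dio2* was close to the threshold and was lost in 14 of 26 alternatives, though the direction was kept in all 26. Leaving out replicate 14 and using only the B6NCrl controls are 1 fit, which is counted once here and below. A fit without affected replicates 1 and 5 together, added after the values were seen, is not counted for *Dio2* because those mice had its highest levels. It was 2.40 on the log2 scale once affected replicate 1 was dropped (edgeR adjusted p = 0.0748), and 3.10 once replicate 5 was dropped (adjusted p = 0.0611). Leaving out unaffected replicate 14, 21, 22, 24, 25 or 26 gave log2 fold changes between 3.12 and 3.31 with adjusted p-values between 0.0519 and 0.0548. With *Xist* as a covariate, since sex is not in the labels, *Dio2* was at 2.22 (edgeR adjusted p = 0.123), and limma on log2 FPKM gave between 1.55 and 2.10 (adjusted p between 0.143 and 0.21). Over the 26 alternatives the adjusted p ranged from 0.000849 to 0.21.

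Markers of brown adipose tissue differed between the same mice. Of 5 such markers, 1 was called, beside 13.7% of all genes tested, and none was at 0 in any mouse. The called marker was *Elovl3*, a fatty acid elongase (log2 fold change 3.79 ± 0.90, SE, edgeR adjusted p = 0.0176). At unadjusted p under 0.05 there were 3 such markers and by DESeq2 2, and the median log2 fold change of the 5 was 1.25. Per length, *Cox8b* was highest in unaffected mice (median FPKM 39.8). *Ucp1*, the uncoupling protein that defines brown fat, was at 693, 51.6, 9.56, 264 and 152 CPM in affected replicates 1, 3, 4, 5 and 6, and between 10.4 and 82.9 CPM (median 39.3) in unaffected mice. The summed level of the 5 markers was 993, 86.6, 29.7, 387 and 350 CPM in the affected mice, and between 51.7 and 207 CPM (median 84.3) in unaffected mice. Affected replicates 1 and 5 were highest in both *Dio2* and this sum, and replicate 4 was lowest of the affected mice in both. The remaining affected mice broke the order, because replicate 6 had a high sum with *Dio2* at 4.30 CPM, and replicate 3 had a sum within the unaffected range with *Dio2* at 25.7 CPM. *Elovl3* alone was at 33.9, 2.95, 0.103, 18.7 and 3.14 CPM in affected replicates 1, 3, 4, 5 and 6, and at most 1.43 CPM in unaffected mice. With the mean of these markers as a covariate, the log2 fold change of *Dio2* was 1.67 ± 0.73 (SE, edgeR adjusted p = 0.181). Whether brown adipose tissue in the samples carried the *Dio2* difference was not tested.

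**Figure D2:**
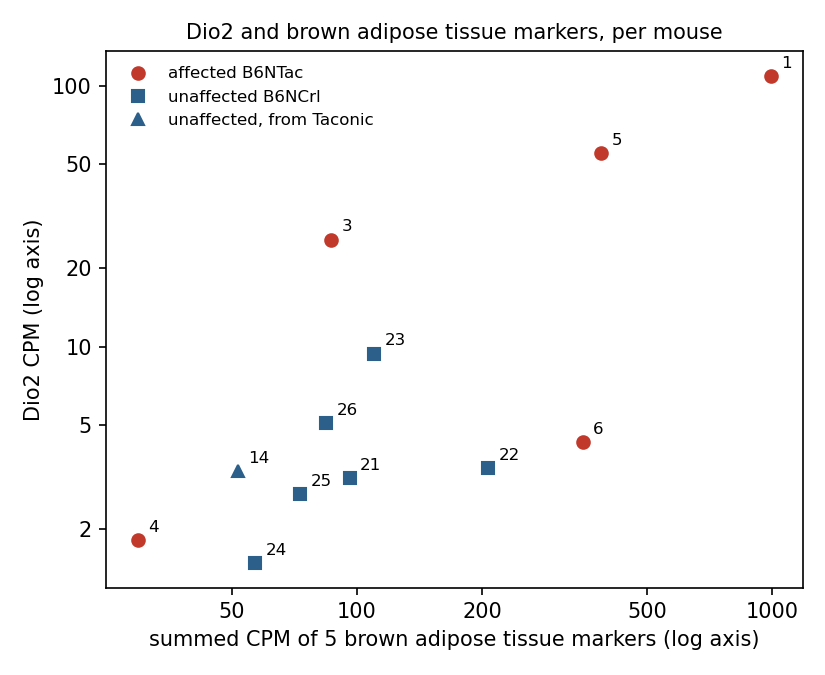
*Dio2* against the summed level of 5 brown adipose tissue markers in each mouse, both as CPM on log axes and labelled by replicate number. Affected replicates 1 and 5 have the highest *Dio2* (109 and 55.1 CPM) and the highest sums (993 and 387 CPM), whereas replicates 3 and 6 depart from that order.

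The genes whose levels followed *Dio2* best from mouse to mouse were *Zbtb11* (Pearson r = 0.935, Spearman rho = 0.944), *Uhmk1* (r = 0.933, rho = 0.888) and *Tmem120a* (r = 0.932, rho = 0.881). These are correlations of deviations from the group means over 12 mice, among the 10637 genes whose log2 CPM averaged 3 or more, and are given as a description of libraries that share tissue make-up and depth. *Zbtb11* lay between 32.7 and 43.6 CPM in affected mice and between 30.5 and 34.4 CPM in unaffected mice, a far narrower range than that of *Dio2*.

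In FPKM, *Dio1* exceeded *Dio2* in 11 of 12 mice. The ratio of *Dio1* to *Dio2* was 0.96, 11.8, 194, 4.58 and 39.6 in affected replicates 1, 3, 4, 5 and 6, and between 27.1 and 180 (median 58.8) in unaffected mice. Affected replicates 1, 3 and 5 were below every unaffected mouse, and replicate 4 was above every one.

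*Dio3* (chromosome 12, plus strand, from 110279068 to 110281097) encodes the deiodinase that inactivates the hormone and is best known from fetal tissues. Its estimated counts were 3, 17, 8, 2 and 0 in affected replicates 1, 3, 4, 5 and 6, and at most 2 in any unaffected mouse. It was at 0 in 4 of the 7 unaffected mice, and a count of 0 allows up to 3 counts, or between 0.139 and 0.25 CPM in those mice, by counting error only. With no filter on low counts its log2 fold change was 2.67 ± 0.92 (SE, unadjusted p = 0.0108, edgeR adjusted p = 0.119 over 36502 genes). Affected replicates 3 (0.738 CPM) and 4 (0.413 CPM) were above every unaffected mouse. Replicate 1 (0.131 CPM) was above the highest unaffected value (0.106 CPM) but below the limit for a count of 0, so its rank is not resolved.

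Deiodinases are selenoproteins, and 8 genes that insert selenocysteine into protein were listed with them. Of these 8, all tested, 1 fell and none rose by edgeR's test, with a median log2 fold change of 0.03 beside 0.01 over all genes. Among all genes tested 13.7% were called and 6.1% were lower, so the count is near the background. The gene that fell was *Sephs1*, which encodes a relative of selenophosphate synthetase, at 21.5, 24.4, 25.8, 22.6 and 23.5 CPM in affected replicates 1, 3, 4, 5 and 6 and between 25.1 and 32.9 CPM (median 28.4) in unaffected mice. The change was small (log2 fold change -0.28 ± 0.07, SE, edgeR adjusted p = 0.0224), and 4 of 27 alternatives lost the call, with adjusted p-values from 0.00467 to 0.15. Among them, leaving out affected replicate 5 gave -0.27 (adjusted p = 0.0602) and leaving out unaffected replicate 25 gave -0.23 (adjusted p = 0.0501). At unadjusted p under 0.05, and by DESeq2, 2 of the 8 genes passed. *Secisbp2l*, with the highest median FPKM of the list in unaffected mice (19.2), lay between 115 and 171 CPM in affected and between 102 and 115 CPM in unaffected mice (edgeR adjusted p = 0.0689).

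Other routes of hormone clearance were covered by 8 genes for sulfation, glucuronidation and recycling of iodide, of which 7 were in the tables and 3 passed the filter. *Ugt1a6a*, a glucuronosyltransferase gene, was the single call, with 9.01, 8.85, 3.82, 5.83 and 5.63 CPM in affected replicates 1, 3, 4, 5 and 6 and between 2.16 and 4.14 CPM (median 3.57) in unaffected mice (log2 fold change 0.95 ± 0.22, SE, edgeR adjusted p = 0.0136). The median of the 3 tested genes was 0.38, and 13.7% of all genes tested were called. *Ugt1a6a* shares exons with other genes of its cluster, so its counts are uncertain. *Iyd*, which recovers iodide from iodinated tyrosine and was the most abundant of the list, lay between 138 and 363 CPM in affected and between 153 and 246 CPM in unaffected mice (edgeR adjusted p = 0.322).

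The promoter of *Dio2* (chr12:90739039-90739288, minus strand) is shown because *Dio2* is the deiodinase gene called by edgeR's test, a call close to the threshold. That of *Dio1* (chr4:107307169-107307418, minus strand) is shown because *Dio1* is the deiodinase that did not pass the test. RefSeq (GRCm38.p6) gave promoters for 6 of the 9 genes, and the 250 bases before the start are printed 5′ to 3′ on the gene's own strand. Capitals mark TGACGTCA, the palindromic cyclic AMP response element.
Dio1: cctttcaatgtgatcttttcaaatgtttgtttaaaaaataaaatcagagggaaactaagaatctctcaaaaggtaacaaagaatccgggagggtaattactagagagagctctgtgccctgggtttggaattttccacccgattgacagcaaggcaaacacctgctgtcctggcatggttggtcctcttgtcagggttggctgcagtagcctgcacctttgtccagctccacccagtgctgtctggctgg
Dio2: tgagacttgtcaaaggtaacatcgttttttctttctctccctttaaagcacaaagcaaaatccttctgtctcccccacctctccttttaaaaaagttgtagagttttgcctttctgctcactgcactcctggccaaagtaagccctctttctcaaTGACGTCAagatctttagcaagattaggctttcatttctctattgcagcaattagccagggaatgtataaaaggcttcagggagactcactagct
The element lies in the *Dio2* promoter from 90739126 to 90739133, and RefSeq places the start at 90739038, upstream of the Ensembl gene in the deposited tables. It was found in 588 (1.79%) of 32851 mouse promoters of 300 bases and in no other of the 7 promoters held for these genes. AGGTCA, the 6-base element that hormone receptors bind, was searched on both strands and was present in 16.3% of all promoters and in 1 of these 7, a *Thrb* promoter. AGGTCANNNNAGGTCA, a direct repeat of it, was in 0.0152% of promoters and in none of the 7. These matches describe letters in the windows and not binding.

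Among the transporters, *Slc16a10* did not pass the test, while 3 of the 7 further transporter genes that were tested were called. *Slc16a10* (ENSMUSG00000019838, minus strand of chromosome 10 from 40033532 to 40142258) encodes a carrier of aromatic amino acids and thyroid hormone. Its level was 15.0, 9.25, 11.1, 12.8 and 30.4 CPM in affected replicates 1, 3, 4, 5 and 6, and between 11.8 and 18.8 CPM (median 13.7) in unaffected mice. Replicate 6 was above every unaffected mouse and replicates 3 and 4 were below every one. The log2 fold change was 0.11 ± 0.26 (SE, n = 5 and 7; edgeR adjusted p = 0.824), with a 95% interval from -0.45 to 0.67, and turned to -0.27 without replicate 6 and to -0.08 with library totals without *Tg*.

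Of the 12 further transporter genes, 7 passed the filter, and 3 rose and none fell by edgeR's test, beside 7.63% higher and 6.1% lower among all genes tested. Their median log2 fold change was 0.40 beside 0.01 over all genes. The list was chosen with earlier results of these data known, so these counts and this median only describe it. At unadjusted p under 0.05, and by DESeq2, the same number passed (3), and 2 were called with library totals without *Tg*. *Slc7a5* and *Slc3a2* encode the light and heavy chains of an amino acid exchanger that also carries thyroid hormone, and both rose. *Slc7a5* was at 23.8, 31.4, 26.7, 23.0 and 16.9 CPM in affected replicates 1, 3, 4, 5 and 6, and between 3.06 and 11.0 CPM (median 3.86) in unaffected mice. The groups did not overlap, as in 7.14% of all genes tested. The difference was 5.03-fold (log2 fold change 2.33 ± 0.30, SE, edgeR adjusted p = 0.00052). *Slc3a2* was at 90.7, 127, 86.1, 129 and 69.3 CPM in the affected mice and between 47.8 and 80.0 CPM (median 54.5) in unaffected mice. Only affected replicate 6 fell within the unaffected range of *Slc3a2* (log2 fold change 0.83 ± 0.17, SE, edgeR adjusted p = 0.00705).

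*Slco2b1*, an organic anion carrier gene, was the last of the 3, at 52.9, 41.4, 34.4, 49.7 and 34.0 CPM in affected replicates 1, 3, 4, 5 and 6 and between 27.7 and 39.2 CPM (median 30.8) in unaffected mice. Its log2 fold change of 0.43 ± 0.13 (SE) had an edgeR adjusted p of 0.042, and 20 of 27 alternatives put it above the threshold, with a range of 0.0122 to 0.296. Leaving out affected replicate 1, 3 or 5 gave 0.33, 0.44 and 0.36 (adjusted p = 0.0871, 0.0719 and 0.111 in edgeR), and leaving out unaffected replicate 14, 21, 22, 23, 25 or 26 gave 0.41, 0.45, 0.40, 0.41, 0.41 and 0.43 (adjusted p from 0.0528 to 0.0766). *Slco1c1*, which encodes the thyroxine carrier of brain capillaries, was at most 0.394 CPM in any mouse and was not tested.

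Neither receptor gene passed the test. *Thra* (ENSMUSG00000058756, plus strand of chromosome 11 from 98740638 to 98769006) encodes thyroid hormone receptor alpha and, as a splice variant, a protein that does not bind the hormone. Its level was 71.5, 45.4, 50.4, 50.6 and 67.7 CPM in affected replicates 1, 3, 4, 5 and 6, and between 56.2 and 73.7 CPM (median 66.6) in unaffected mice. Replicates 3, 4 and 5 were below every unaffected mouse. The log2 fold change was -0.22 ± 0.12 (SE, n = 5 and 7; edgeR adjusted p = 0.238), with a 95% interval from -0.47 to 0.03.

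*Thra* was called lower with brown adipose tissue markers as a covariate (log2 fold change -0.35, edgeR adjusted p = 0.0363) and with library totals that leave out *Tg* and use no TMM factors (-0.36, adjusted p = 0.0357), within a range of adjusted p from 0.0357 to 0.454 over 27 alternatives. That scaling moved all genes by a median of -0.14 on the log2 scale. Replicates 1 and 6, the affected mice with the highest *Thra*, had the lowest thyrocyte markers, and relative to those markers log2 *Thra* was 1.47 and 1.31 there and between -0.20 and -0.10 in the remaining affected mice. In unaffected mice the relative value lay between 0.32 and 1.09. The marker mean includes *Slc26a4*, which was called higher in affected mice, and was not computed without that gene. Whether the remaining affected mice lie below the unaffected range on this relative scale is therefore not settled.

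*Thrb* (ENSMUSG00000021779, plus strand of chromosome 14 from 17660261 to 18038090) encodes thyroid hormone receptor beta. Its level was 27.6, 15.6, 13.0, 15.3 and 27.2 CPM in affected replicates 1, 3, 4, 5 and 6, and between 16.0 and 26.5 CPM (median 23.5) in unaffected mice. The same mice were high and low as for *Thra*, since replicates 1 and 6 were above every unaffected mouse and replicates 3, 4 and 5 below every one. The log2 fold change was -0.13 ± 0.21 (SE, n = 5 and 7; edgeR adjusted p = 0.747), with a 95% interval from -0.59 to 0.34, and turned to 0.01 without affected replicate 4. Per length, *Thra* exceeded *Thrb* in all 12 mice, by 5.12 to 6.81 times in affected and 4.53 to 7.47 times in unaffected mice.

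Exons of *Thra* overlap *Nr1d1*, a gene of the circadian clock on the opposite strand, over 263 bases from 98768157 to 98768419. Of 9 annotated *Thra* transcripts, 2 hold bases of that overlap. *Nr1d1* was at 87.4, 73.5, 92.9, 89.0 and 88.3 CPM in affected replicates 1, 3, 4, 5 and 6, and between 49.3 and 236 CPM (median 156) in unaffected mice, with replicate 14 the lowest (log2 fold change -0.81 ± 0.28, SE, edgeR adjusted p = 0.0764). Its unadjusted p was 0.0135 in edgeR's test, and DESeq2 and the fit with library totals without *Tg* both called it. Whether counting used the strand is not given in the sources used here, so reads in the overlap could belong to either gene. Exons of *Dio2* overlap *Gm26512*, a noncoding gene on the opposite strand, over 100 of 5815 bases, and that gene had 35 counts in all affected mice together against 4467 for *Dio2*, and 38 against 544 in all unaffected mice together.

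Counts and FPKM together give the mean transcript length behind a value, which depends on the isoforms that reads were assigned to. That length was within 1% of the annotated one in all mice for 1034 genes that have only 1 transcript and no fewer than 100 counts per mouse. Of the 9 genes, 5 had enough counts, and none of the 5 was called by limma, beside 0.474% of 10118 genes. Implied length was 2190 ± 15.9 bases (SD, n = 5) in affected and 2220 ± 39 bases (SD, n = 7) in unaffected mice for *Thra* (limma adjusted p = 0.551), and 4290 ± 279 against 4140 ± 255 bases for *Thrb* (limma adjusted p = 0.809). It was 1680 ± 6.65 against 1670 ± 14.1 bases for *Dio1*, 3760 ± 331 against 3910 ± 162 bases for *Slc16a10*, and 4400 ± 35.4 against 4390 ± 20.6 bases for *Klf9*, with SDs over the same mice. Adjusted p-values for these 3 genes were 0.636, 0.77 and 0.868 in limma's test, and at unadjusted p the lowest of the 5 was 0.112.

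Of 16 genes for receptor partners and coregulators, all tested, 2 fell and none rose by edgeR's test. Among all genes tested 13.7% were called and 6.1% were lower, so the count is near the background. The median log2 fold change of the 16 was 0.01, and 2 also passed at unadjusted p under 0.05 and 2 by DESeq2. *Brd8*, a bromodomain coactivator of the receptor, was at 74.0, 72.3, 84.2, 72.4 and 67.5 CPM in affected replicates 1, 3, 4, 5 and 6, and between 84.8 and 95.6 CPM (median 91.6) in unaffected mice (log2 fold change -0.30 ± 0.06, SE, edgeR adjusted p = 0.00732). *Ncoa2*, a steroid receptor coactivator gene, was at 118, 132, 139, 137 and 124 CPM in the affected mice and between 140 and 157 CPM (median 154) in unaffected mice (log2 fold change -0.22 ± 0.06, SE, edgeR adjusted p = 0.0254). Neither gene had overlapping groups, beside 7.14% of all genes tested. The margins were thin, at 84.2 against 84.8 CPM for *Brd8* and 139 against 140 CPM for *Ncoa2*. The differences were small, and the call for *Ncoa2* was lost in 11 of 27 alternatives, with adjusted p-values from 0.00114 to 0.114. Among them, *Ncoa2* was at -0.22, -0.20, -0.19 and -0.21 without affected replicate 3 or unaffected replicate 24, 25 or 26 (edgeR adjusted p = 0.0529, 0.0552, 0.0564 and 0.0529). *Ncor1*, the corepressor gene with the highest FPKM of the list, lay between 335 and 367 CPM in affected and between 322 and 366 CPM in unaffected mice. *Rxra*, which encodes a partner receptor, had a log2 fold change of 0.09 ± 0.13 (SE, edgeR adjusted p = 0.682).

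The binding proteins were low in these thyroids. *Crym* (chromosome 7, minus strand, from 120186380 to 120202111) encodes a cytosolic protein that binds triiodothyronine, and its estimated counts were 4, 3, 4, 1 and 12 in affected replicates 1, 3, 4, 5 and 6 and between 0 and 7 in unaffected mice. With no filter on low counts its log2 fold change was 0.86 ± 0.70 (SE, edgeR adjusted p = 0.524).

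*Ttr* (ENSMUSG00000061808, plus strand of chromosome 18 from 20665280 to 20674321) encodes transthyretin, a thyroxine carrier made mainly by liver and choroid plexus. It was at 0.35, 0.868, 0.517, 0.735 and 0.165 CPM in affected replicates 1, 3, 4, 5 and 6, and between 0.371 and 7.83 CPM (median 0.924) in unaffected mice. Unaffected replicates 23 (7.83 CPM) and 14 (2.50 CPM) stood above the rest, and the groups overlapped. The log2 fold change was -1.91 ± 0.78 (SE, n = 5 and 7; edgeR adjusted p = 0.127), and -0.93 without replicate 23 (adjusted p = 0.246). Over 26 alternatives the adjusted p ranged from 0.0401 to 0.468.

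Markers of hepatocytes were high in the same 2 unaffected mice. *Alb*, which encodes albumin and had the highest FPKM of the 6 markers in those 2 mice, was at 170 CPM in replicate 23 and 27.7 CPM in replicate 14, at most 0.567 CPM in the remaining unaffected mice and at most 4.37 CPM in affected mice. The summed level of the 6 markers was 236 and 39.3 CPM in replicates 23 and 14, and in affected replicates 1, 3, 4, 5 and 6 it was 1.01, 0.347, 2.63, 6.31 and 0.607 CPM. In some mouse each of 5 of the 6 markers was at 0, and *Alb* alone passed the filter (edgeR adjusted p = 0.206). The part of these transcripts in the level of *Ttr* was not tested. Of the 3 other binding protein genes listed, *Alb* among them, none was called by edgeR or DESeq2 and none had an unadjusted p under 0.05. The 2 that were tested went opposite ways, with log2 fold changes of -4.41 for *Alb* and 1.06 for *Aldh1a1* (median -1.67). *Serpina7*, the gene of thyroxine binding globulin, did not exceed 0.392 CPM in any mouse, and *Aldh1a1*, which encodes an aldehyde dehydrogenase that binds the hormone, lay between 16.8 and 103 CPM in affected and between 7.68 and 46.5 CPM in unaffected mice (edgeR adjusted p = 0.251).

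*Klf9* (ENSMUSG00000033863, plus strand of chromosome 19 from 23141226 to 23168134) encodes a zinc finger factor that the hormone induces through its receptors in many cells, and that glucocorticoids induce as well. Its level was 227, 199, 215, 242 and 278 CPM in affected replicates 1, 3, 4, 5 and 6, and between 145 and 304 CPM (median 218) in unaffected mice. Every affected mouse lay within the unaffected range, whose lowest value was that of replicate 14. Between the groups the log2 fold change was 0.07 ± 0.15 (SE, n = 5 and 7; edgeR adjusted p = 0.807), with a 95% interval from -0.26 to 0.40, and turned to -0.01 without replicate 14 and to -0.07 with library totals without *Tg*.

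The genes that followed *Klf9* best from mouse to mouse, by the same measure over 12 mice and 10636 genes, were *Ifrd2* (Pearson r = 0.958, Spearman rho = 0.902), *Klf15* (r = 0.94, rho = 0.951) and *Ubl3* (r = 0.933, rho = 0.958). *Klf15*, a related factor, lay between 17.9 and 37.2 CPM in affected and between 10.4 and 40.7 CPM in unaffected mice, with replicates 14 and 26 the lowest.

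Of 16 genes known to respond to the hormone, among them *Klf9*, *Dio1* and *Thrb*, 15 passed the filter. By edgeR's test 3 of the 15 rose and none fell, beside 7.63% higher and 6.1% lower among all genes tested. At unadjusted p under 0.05 there were 5 and by DESeq2 4. The median log2 fold change was 0.51, beside 0.01 over all genes. This list too was chosen with earlier results of these data known, so its counts and median only describe it. *Atp2a2*, which encodes the calcium pump of the endoplasmic reticulum, was at 305, 382, 332, 397 and 281 CPM in affected replicates 1, 3, 4, 5 and 6 and between 169 and 244 CPM (median 185) in unaffected mice (log2 fold change 0.82 ± 0.11, SE, edgeR adjusted p = 0.000531). *Me1*, the gene of cytosolic malic enzyme, was at 182, 148, 151, 167 and 179 CPM in the affected mice and between 111 and 126 CPM (median 118) in unaffected mice (log2 fold change 0.48 ± 0.07, SE, edgeR adjusted p = 0.000821). In both genes every affected mouse was above every unaffected mouse, beside 7.14% of all genes tested whose groups did not overlap in either direction.

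*Hr*, a corepressor gene that the hormone induces in brain, was the third call of that list. It was at 28.0, 25.0, 16.8, 22.4 and 44.9 CPM in affected replicates 1, 3, 4, 5 and 6, and between 8.60 and 17.1 CPM (median 15.1) in unaffected mice. Affected replicate 4 alone fell within the unaffected range (log2 fold change 1.01 ± 0.24, SE, edgeR adjusted p = 0.015). *Fasn*, the fatty acid synthase gene, varied from 444 to 3450 CPM in affected mice against 418 to 935 CPM in unaffected mice and did not pass (edgeR adjusted p = 0.0862). *Atp2a1*, the pump gene of fast skeletal muscle, had the highest median FPKM of the list in unaffected mice (324). It varied from 2.89 to 6640 CPM in affected mice and from 0.417 to 3200 CPM in unaffected mice. The list holds genes that muscle, adipose tissue and the unfolded protein response also change, and the part of each in these values was not tested.

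**Figure D3:**
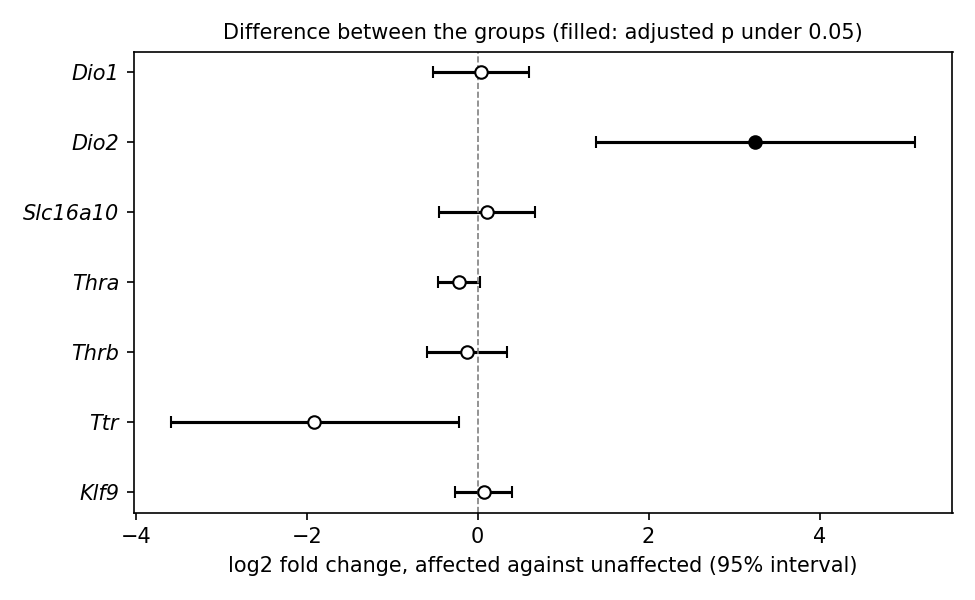
Log2 fold change of affected against unaffected mice with its 95% interval for the 7 tested genes, from edgeR (n = 5 and 7); filled points have an adjusted p under 0.05. *Dio2* (3.25) alone is filled, and *Dio2* and *Ttr* have the widest intervals.

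Markers of neighbouring tissues differed between the libraries. Of 9 skeletal muscle markers none was called by edgeR or DESeq2 and none had an unadjusted p under 0.05, but their sum was 14.2, 192, 97.8, 1310 and 28800 CPM in affected replicates 1, 3, 4, 5 and 6 and between 2.42 and 12400 CPM (median 4750) in unaffected mice. Parathyroid markers (none of 4 called by either tool or at that unadjusted p) summed to 3560, 3460, 46.9, 2020 and 4440 CPM in the affected mice, with *Pth* the highest per length in unaffected mice and *Gcm2* at 0 in replicate 4, and to between 1860 and 3540 CPM in unaffected mice. B cell markers summed to 68.9 CPM in affected replicate 1, the mouse with the highest *Dio2*, and to at most 8.26 CPM in any other mouse. Erythrocyte markers summed to 1450, 336, 739, 263 and 1270 CPM in the affected mice, to 1510 CPM in replicate 14 and to between 200 and 469 CPM in the other unaffected mice. T cell markers summed to 240 and 245 CPM in unaffected replicates 14 and 21 and to at most 37.2 CPM in any other mouse.

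Beside the edgeR counts in this paragraph, 7.63% of all genes tested were called higher and 6.1% lower. The lists were chosen with earlier results of these data known, so the counts only describe them. Of 6 macrophage markers 3 rose by edgeR's test, 5 passed at unadjusted p under 0.05, 5 were called by DESeq2 and 1 with library totals without *Tg*. Their sum lay between 134 and 213 CPM in affected and between 65.0 and 157 CPM in unaffected mice. Of 6 fibroblast markers 2 rose (3 at unadjusted p, 2 by DESeq2, 0 with library totals without *Tg*), with sums between 757 and 1190 CPM in affected and between 570 and 819 CPM in unaffected mice. Of 5 endothelial markers *Kdr* fell and no other was called, with a median log2 fold change of 0.17; at unadjusted p under 0.05 *Kdr* and *Emcn* were lower and *Pecam1* was higher, and DESeq2 called 3. Their sum lay between 389 and 556 CPM against 425 and 593 CPM. Of 8 C cell markers, 6 of them tested, *Ret* fell, and 1 passed at unadjusted p and by DESeq2. The sum of C cell markers lay between 1430 and 5730 CPM in affected and between 2570 and 5440 CPM in unaffected mice. *Chga*, which is in that sum, was at 16.9 CPM in affected replicate 4, where parathyroid markers were also lowest. In the other affected mice it lay between 2490 and 5120 CPM. Whether the sum tracks C cells alone was not tested. *Calca*, the calcitonin gene, was at 994 CPM in replicate 4 and between 369 and 619 CPM in the other affected mice. Of the 12 thyrocyte markers, 1 rose and 1 fell, with a median log2 fold change of -0.32. The first was *Slc26a4*, which encodes an anion exchanger and was near the limit of detection in unaffected mice (at most 0.294 CPM). The other was *Pax8*, a lineage factor. At unadjusted p 5 of the 12 passed, 4 were called by DESeq2 and 2 with library totals without *Tg*. The sum of the thyrocyte markers lay between 101000 and 257000 CPM in affected and between 211000 and 305000 CPM in unaffected mice. The sum of airway and cartilage markers was 562 CPM in affected replicate 3 and at most 23.6 CPM in any other mouse. Of the 3 tested, *Scgb3a1*, a secretoglobin gene of airway epithelium, was called (edgeR adjusted p = 0.0268; 3 at unadjusted p, 1 by DESeq2), at 133 CPM in replicate 3 and 13.5 CPM in replicate 6 against at most 0.908 CPM in any other mouse. White adipose tissue markers summed to 769, 260, 179, 364 and 351 CPM in affected replicates 1, 3, 4, 5 and 6 and to between 228 and 372 CPM in unaffected mice, and none of 5 was called by edgeR or DESeq2 or had an unadjusted p under 0.05. The part of any of these tissues in the differences above was not tested.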

How the data were processed

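Thyroid RNA of 12 mice was compared as 5 affected against 7 unaffected mice, 1 library each. The authors aligned the reads with the OmicSoft Aligner to a reference they call Mouse.B39 (Ensembl R96) and quantified genes in OmicSoft Array Studio. The spans of the 9 genes in the tables are those of GRCm38. They deposited estimated counts without normalization, and the authors' FPKM values, which are scaled to transcript length and library size. Use of strand is not given in the sources used here.

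Estimated counts were rounded and filtered with edgeR's filterByExpr (minimum count 10), scaled by TMM factors and tested in edgeR 4.0.16 under R 4.3.3 by quasi-likelihood with robust dispersions. P-values were adjusted by Benjamini-Hochberg over all 19661 genes tested, and calls are those under 0.05. The SE of a log2 fold change was derived from the F statistic, and log2 CPM has a prior count of 2. Implied lengths were tested with limma 3.58.1 and DESeq2 1.42.0 served as an alternative. Other alternatives changed the scaling, the filter, the control mice, the unit (limma on FPKM), covariates (*Xist* and cell type lists) or the mice included. The scripts were tested on simulated data.

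Genes named are the 9 genes, the called genes of 7 pathway lists, summed levels of 14 cell type lists and the 3 genes that follow *Dio2* and *Klf9* best; further list genes were chosen after their values were seen. The transporter list leaves out 1 gene that is not reported here. The 9 genes and the lists were chosen with earlier results of these data known. Gene positions and overlaps are from GENCODE M21, promoters from RefSeq.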

Additional observations from a re-analysis of the deposited data

Results flagged for a closer look

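Chance would single out about 1 in 20 groups of mice by the rule used here, which asks whether the highest or lowest mouse lies apart from its group on the log2 scale. Of 34 groups examined, in 17 genes, 2 were singled out, which is near what chance would give. Both concern unaffected replicate 23. *Slc7a5* was at 11.0 CPM there, against 4.70 CPM in the next highest unaffected mouse and a median of 3.86 CPM. *Slc3a2*, the partner of *Slc7a5*, was at 80.0 CPM there, against 57.5 CPM in the next highest unaffected mouse and a median of 54.5 CPM. The same mouse had the highest *Dio2*, *Ttr* and *Alb* of the unaffected mice. Without it the log2 fold change of *Slc7a5* was 2.67 (edgeR adjusted p = 6.37e-06), within a range of adjusted p from 1.09e-12 to 0.00427 over 27 alternatives.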

How the results depend on the processing

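The number of genes called was 2699. It was 1339 with limma on log2(FPKM + 1) without a filter, 1440 without affected mice 1 and 5, and between 1774 (without affected mouse 5) and 3390 (without affected mouse 4) when mice were left out singly. In the remaining alternatives it lay between 1869 and 3688. Higher genes were 55.6% of the calls, 43.2% with upper-quartile factors (1149 higher, 1510 lower) and 26.1% with library totals without *Tg* (607 higher, 1720 lower).

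The number of the 9 genes called was 1. It was 2 with DESeq2 (*Dio2* and *Ttr*) and with library totals without *Tg* (*Dio2* and *Thra*). It was 0 without a filter on low counts, with only the B6NCrl controls, in all 3 limma fits on FPKM, with *Xist* as a covariate and without affected mice 1 and 5, and 0 to 1 with each mouse left out. With brown adipose tissue markers as a covariate the count was 1, but the gene was *Thra*.

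The log2 fold change of *Dio2* missed the threshold at 3.25 without a filter, 3.21 with only the B6NCrl controls, 1.55 with log2(FPKM + 1) with or without its filter, 2.10 with log2(FPKM + 0.1), 2.22 with *Xist*, 1.67 with brown adipose tissue markers and 1.36 without affected mice 1 and 5. With each mouse left out it lay between 2.40 and 3.60. Affected mice 1 and 5 have the highest *Dio2*, so leaving them out lowers its fold change by construction. The cause of the other shifts was not tested. Using only the B6NCrl controls is the same fit as leaving out unaffected mouse 14.

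Direction turned only in values that did not pass. *Dio1* was -0.08 with library totals without *Tg*, 0.00 with upper-quartile factors, -0.07 with log2(FPKM + 1) with or without its filter, -0.08 with log2(FPKM + 0.1), -0.03 with thyrocyte markers and -0.13 to 0.23 with each mouse left out. *Slc16a10* was -0.08 with library totals without *Tg*, -0.14 with brown adipose tissue markers and -0.27 to 0.25 with each mouse left out. *Klf9* was -0.07, -0.02 and -0.01 with library totals without *Tg*, brown adipose tissue markers and only the B6NCrl controls, and -0.01 to 0.18 with each mouse left out. *Thrb* was -0.28 to 0.01 with each mouse left out.

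Implied length gave 48 calls, 27 with only the B6NCrl controls, 28 with at least 20 counts and 20 (without affected mouse 3) to 39 (without unaffected mouse 22) with each mouse left out. *Ttr* could not be fitted with at least 10 counts in every mouse. *Slc7a5*, *Slc3a2*, *Me1* and *Atp2a2* kept direction and call in all 27 distinct alternatives. Calls were lost for *Ugt1a6a* and *Hr* in 2 each, with log2(FPKM + 1) without a filter (0.62 and 0.74, limma adjusted p = 0.0857 and 0.055) and without affected mice 1 and 5 (0.83 and 1.09, edgeR adjusted p = 0.0743 and 0.053), and for *Brd8* in the first of these (-0.28, adjusted p = 0.071). The thyrocyte covariate and the fit without affected mice 1 and 5 were added after the data were seen. Counts under 10 in 11 of 12 libraries limit *Dio3* and *Crym*, and 5 against 7 mice with colony and phenotype split alike limit all comparisons.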
